A study of Mus musculus with 6 samples.

Results

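Nuclear receptors are transcription factors that bind DNA through a zinc finger domain, and most of them change their activity when a small lipophilic ligand enters their ligand-binding domain. Many bind repeats of the half-site AGGTCA as a pair with a retinoid X receptor (RXR). In liver they sense bile acids, oxysterols, fatty acids, foreign compounds, retinoids, thyroid hormone and steroids, and adjust metabolism and detoxification to them. The genes described here are 35 nuclear receptors, taken by symbol from a table of 34866 genes. The list leaves out the clock receptors Nr1d1 and Nr1d2. All 35 were found, each under 1 identifier. A filter on low counts kept 33 of them, and Vdr and Hnf4g were too low to be tested.

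Polyadenylated RNA was measured by sequencing in livers of 8-week-old male C57BL/6 mice. Of the 6 libraries, 3 came from mice given the compound iD1, for which the labels give a code name and nothing more, and 3 from vehicle mice. Per the labels, the mice had free access to food and water under a light-dark cycle, and injection was intraperitoneal. The labels give no dose, exposure time or target of iD1. Under treatment, the vehicle samples are labelled as untreated. The labels do not state that each library is a separate animal, so p-values cover only the spread among these samples, which may be technical.

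The libraries held 23515571 to 35207596 estimated counts with iD1 and 27160894 to 37613549 with vehicle. The number in the name of 1 vehicle column matches no sample title, so that library is called the unnumbered vehicle replicate. The summed level of 10 hepatocyte markers was 99574 to 110199 CPM (counts scaled to a common library total) with iD1 and 78170 to 102970 CPM with vehicle. Mitochondrially encoded genes took 8.68% to 10.3% of the counts in the iD1 libraries and 10.6% to 13.6% in the vehicle libraries. These shares do not overlap, and their part in the results was not tested. Levels below are in CPM after TMM scaling, values are listed as replicates 1, 2 and 3 for iD1 and replicates 1, 2 and unnumbered for vehicle, and means are given ± SD with n = 3 in each group. A gene is called when its adjusted p in edgeR's quasi-likelihood test (Benjamini-Hochberg over 13718 genes) is under 0.05.

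The promoters of 4 genes are shown because these lie at the ends of the range of change, Rarb and Rxrg lowest and Nr4a1 and Hnf4a highest among the called genes. Each runs 250 bases up to the base before the transcription start, 5′ to 3′ on the gene's strand, from RefSeq's table on GRCm38.p6. Capitals mark matches to a motif searched on both strands, and the motifs were chosen after the promoters were read. Rarb is at chr14:16575477-16575726 on the minus strand, with a retinoic acid response element type of repeat, GTTCAC and GTTCA set 5 bases apart. Rxrg is at chr1:167618015-167618264 on the plus strand, the second of its 2 listed starts, with the extended half-site AAAGGTCA, which contains AGGTCA. Nr4a1 is at chr15:101266596-101266845 on the plus strand, with the cAMP response element-like TGCGTCA. Hnf4a is at chr2:163546905-163547154 on the plus strand, 1 of its 2 listed starts, with the HNF1-type motif, GTTAAT and TTAA set 2 bases apart, here read on the other strand.
Rarb: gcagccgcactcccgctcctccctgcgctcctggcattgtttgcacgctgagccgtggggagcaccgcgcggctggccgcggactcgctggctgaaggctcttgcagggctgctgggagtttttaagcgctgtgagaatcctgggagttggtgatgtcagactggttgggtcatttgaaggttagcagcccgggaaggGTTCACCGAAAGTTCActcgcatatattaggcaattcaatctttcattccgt
Rxrg: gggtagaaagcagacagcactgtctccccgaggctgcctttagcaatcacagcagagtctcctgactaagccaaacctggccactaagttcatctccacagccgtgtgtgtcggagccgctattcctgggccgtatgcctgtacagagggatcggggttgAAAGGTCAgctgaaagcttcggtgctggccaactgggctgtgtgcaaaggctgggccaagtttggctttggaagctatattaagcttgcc
Nr4a1: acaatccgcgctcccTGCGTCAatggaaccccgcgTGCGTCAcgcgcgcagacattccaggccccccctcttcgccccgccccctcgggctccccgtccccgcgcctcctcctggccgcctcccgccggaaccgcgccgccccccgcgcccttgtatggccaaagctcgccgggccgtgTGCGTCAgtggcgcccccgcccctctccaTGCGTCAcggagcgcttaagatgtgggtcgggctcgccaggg
Hnf4a: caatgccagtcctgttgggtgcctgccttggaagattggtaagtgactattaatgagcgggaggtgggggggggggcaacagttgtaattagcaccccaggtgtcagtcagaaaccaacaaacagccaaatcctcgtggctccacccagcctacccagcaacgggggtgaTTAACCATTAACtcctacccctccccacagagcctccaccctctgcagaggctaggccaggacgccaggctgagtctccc
The Rarb match spans bases 52 to 37 before the start, and 4 of 32851 promoters in the table (0.0122%) hold that motif. The Nr4a1 promoter holds 4 copies of TGCGTCA, a motif present in 1.75% of promoters. AAAGGTCA is in 1.34% of promoters and the HNF1-type motif in 0.131%. The plain half-site AGGTCA was in 9 of 51 promoters of 32 receptor genes (17.6%), against 14.02% of all promoters, and the repeat of AGGTCA with 1 base between was in none of the 51 and in 11 of all promoters. A match describes letters in the window and shows neither binding nor a cause.

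Per length, the most abundant receptor transcripts in these livers were those of Hnf4a, which maintains hepatocyte identity, Nr1h4 (FXR), the bile acid receptor, Nr1i3 (CAR), a sensor of foreign compounds, and Rxra, the shared partner. The scale is RPKM, CPM divided by the kilobases of the gene's longest GENCODE M21 transcript. Hnf4a stood at 145, 189 and 169 RPKM in iD1 livers, against 66.5, 113 and 113 RPKM in vehicle livers. In each of the 6 libraries Hnf4a had the highest level of the 35. It made up 29.0% to 34.8% of the summed RPKM of the 35 genes with iD1 and 16.3% to 23.4% with vehicle. Nr1h4 averaged 58.0 RPKM with iD1 and 70.4 RPKM with vehicle, Nr1i3 64.2 and 52.8 RPKM, and Rxra 47.2 and 39.7 RPKM. With iD1, Nr1i3 ranked above Nr1h4, and their libraries overlapped (55.6 to 77.4 and 55.0 to 60.5 RPKM). At the low end Nr4a2 averaged 0.138 RPKM with iD1 and 0.0693 RPKM with vehicle, and Hnf4g and Vdr were lower still in both groups. With exon union lengths in place of the longest transcript, Nr1h4 ranked above Nr1i3 with iD1 too, at 50.7 and 43.3 RPKM, and Rxra and Nr1i3 had the same 35.7 RPKM in vehicle.

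**Figure D1:**
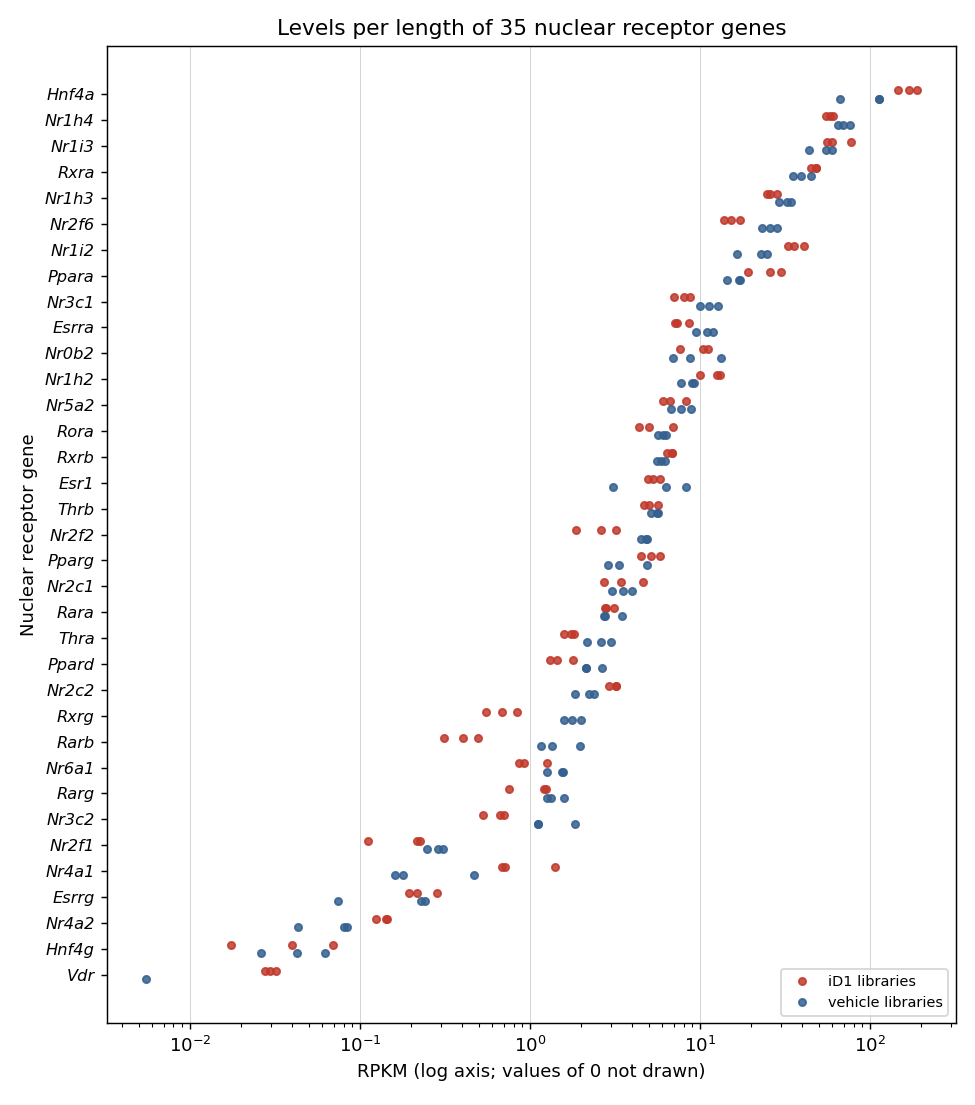
Levels of the 35 receptor genes in RPKM (log axis), with one point per library, iD1 in red above vehicle in blue, ordered by the vehicle mean. Hnf4a is highest in both groups, at 145 to 189 RPKM with iD1 and 66.5 to 113 RPKM with vehicle, and Vdr is lowest.

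Of the 33 tested receptor genes 15 were called, 6 higher and 9 lower with iD1. This is 45.5% of them, against 16.7% of all 13718 tested genes. The list was chosen with earlier results of these data known, so these shares are a description and not a test of the family. The called receptor genes that rose were Nr4a1, Hnf4a, Nr1i2, Ppara, Nr2c2 and Nr1h2 (18.2% against 8.42% of all genes). Those that fell were Rarb, Rxrg, Nr3c2, Nr2f2, Nr2f6, Ppard, Thra, Nr3c1 and Esrra (27.3% against 8.3%). The groups were fully separated in 23 of the 33 (69.7%), against 37.2% of all tested genes. Most changes were small: 4 of the 15 called receptors differed at least 2-fold (26.7%), while 908 of all 2293 called genes did (39.6%). The median log2 fold change of the 33 was -0.14, against 0.00 over all tested genes. With no scaling beyond library size, which moved the median of all genes to -0.20, 1 receptor was called higher and 12 lower, and all 15 kept their direction. That scaling ended the calls of Nr2c2 (edgeR adjusted p = 0.193), Ppara (0.156), Nr4a1 (0.0511), Hnf4a (0.0694) and Nr1h2 (0.260) and added Nr1h3, Nr1h4 and Nr6a1 as lower. Upper-quartile factors ended the call of Nr1h2 (0.0871), and limma-voom those of Nr1h2 (0.0562) and Thra (0.054). The share of calls that were higher was 40.0% among the receptors and 50.4% among all genes, and it was 33.3% and 38.4% with upper-quartile factors and 7.69% and 24.1% with library size only. Rarb, Rxrg, Nr2f6, Nr2f2 and Nr3c2 stayed called without any 1 of the 6 libraries. In bulk liver, fewer cells of a type and less RNA per cell cannot be told apart.

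**Figure D2:**
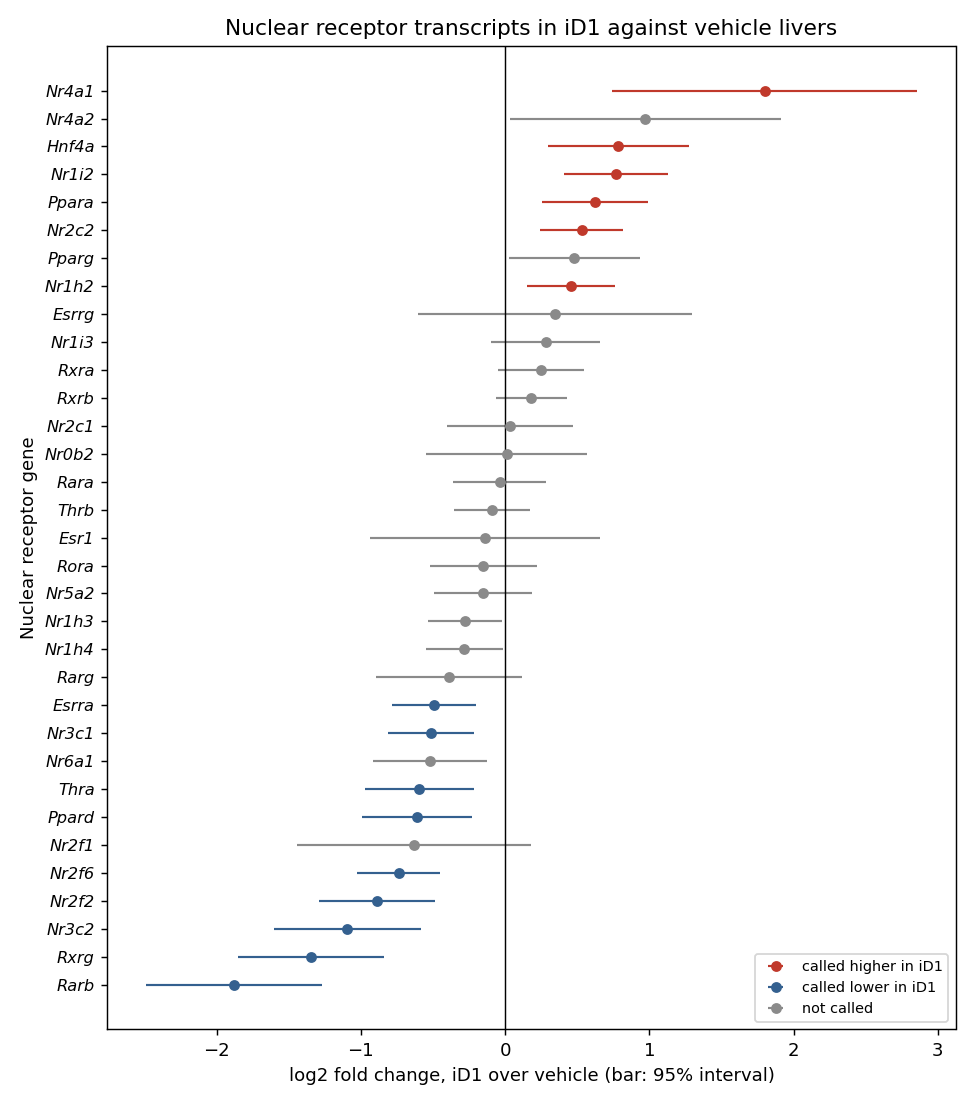
Log2 fold change of iD1 over vehicle for the 33 tested receptor genes, with 95% intervals from the quasi-likelihood fit. Red marks the 6 called higher, blue the 9 called lower and grey the 18 not called, from Nr4a1 at 1.80 down to Rarb at -1.88.

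The retinoid receptors bind retinoic acid (the RARs) or pair with other receptors (the RXRs). In both families 1 member was called lower with iD1, against 8.3% of all tested genes. Rarb, itself a classical retinoic acid target whose promoter stands above, had 1.53, 1.26 and 0.9751 CPM in iD1 livers, against 4.16, 6.15 and 3.61 CPM in vehicle livers. All iD1 libraries were well under the lowest vehicle library. The log2 fold change was -1.88 (SE 0.27) with edgeR's adjusted p = 0.00237. Rxrg, the RXR subtype lowest in these livers, had 1.45, 1.78 and 1.16 CPM with iD1, against 3.36, 4.19 and 3.71 CPM with vehicle. Its groups did not overlap, and the change was -1.35 (SE 0.23, edgeR adjusted p = 0.00494). Both genes are low, at 21 to 55 counts per iD1 library. Rarb lies on chromosome 14 from 16430839 to 16819156 and Rxrg on chromosome 1 from 167598384 to 167639623 (GENCODE M21, GRCm38). These positions come from the annotation and not from the count table. Exons of Rarb share 1793 bases with Top2b, transcribed from the opposite strand, whose log2 fold change was -0.27 (SE 0.11, edgeR adjusted p = 0.121). Top2b is far more abundant than Rarb, at 34.7 ± 1.75 CPM with iD1 and 41.8 ± 1.97 CPM with vehicle. No source used here says whether the counting used strand, so reads in the shared bases cannot be told apart. The same limit holds for the other exon overlaps given below.

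The other retinoid receptors were not called. Rara averaged 9.82 ± 0.678 CPM with iD1 and 10.1 ± 1.43 CPM with vehicle, and the 95% interval of its log2 fold change ran from -0.36 to 0.28. Rarg did not overlap between the groups, but its change of -0.39 (interval -0.90 to 0.12) was not called. Rxra had 222, 236 and 237 CPM in iD1 livers, against 174, 219 and 192 CPM in vehicle livers. The groups came close without overlapping, and the change of 0.25 (interval -0.05 to 0.55) was not called. Rxrb did not overlap either and was not called, with an interval of -0.06 to 0.43. Of 8 tested retinoic acid receptor targets, 0 were higher and 2 lower (against 8.42% and 8.3% of all tested genes). Their median log2 fold change was -1.03, and 1 of the 2 lower ones was Rarb itself. The other was Lrat, which stores retinol as esters in stellate cells, at 6.34 ± 2.21 CPM with iD1 and 21.4 ± 3.44 CPM with vehicle. Without the unnumbered vehicle replicate 4 were lower and without iD1 replicate 1, 3. Cyp26a1, which breaks down retinoic acid and is named after its values were seen, had 11.9, 5.34 and 7.99 CPM in iD1 livers, against 22.0, 33.5 and 13.8 CPM in vehicle livers. Its groups did not overlap, and at edgeR's adjusted p = 0.064 it was not called.

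Steroid and thyroid hormone receptors were lower or not called, and none was higher. Nr3c1, the glucocorticoid receptor, had 56.1, 45.4 and 52.1 CPM in iD1 livers, against 64.0, 82.3 and 72.8 CPM in vehicle livers. The groups did not overlap, and the change was -0.51 (SE 0.13, edgeR adjusted p = 0.0286). Leaving out iD1 replicate 2 (adjusted p = 0.0882), iD1 replicate 3 (0.083), vehicle replicate 2 (0.0975) or the unnumbered library (0.0862) ended the call, within a range of 0.0257 to 0.0975. Nr3c2, the mineralocorticoid receptor, had 3.14, 3.92 and 4.18 CPM with iD1, against 10.8, 6.60 and 6.62 CPM with vehicle. Vehicle replicate 1 was the highest, and every vehicle library lay above the iD1 libraries. The change was -1.09 (SE 0.23, edgeR adjusted p = 0.0116).

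Thra, the thyroid hormone receptor that is the lower of the pair in these livers, had 3.91, 4.43 and 4.27 CPM in iD1 livers, against 7.32, 6.41 and 5.33 CPM in vehicle livers. These values did not overlap, and the change was -0.59 (SE 0.17, edgeR adjusted p = 0.0406). Only with the unnumbered vehicle replicate left out did it stay called (adjusted p = 0.0464), and leaving out iD1 replicate 1 (0.081), 2 (0.0726) or 3 (0.104) or vehicle replicate 1 (0.129) or 2 (0.109) ended the call. Exons of Thra share 263 bases with the clock receptor Nr1d1 on the other strand. Nr1d1 had a log2 fold change of 0.75 (SE 0.26, edgeR adjusted p = 0.0747), the opposite sign. Thrb, the more abundant receptor in liver, averaged 31.7 ± 3.28 CPM with iD1 and 33.7 ± 1.69 CPM with vehicle, with an interval of -0.36 to 0.17. Esr1, the oestrogen receptor, had 37.0, 33.5 and 31.2 CPM in iD1 livers, against 19.5, 40.1 and 52.2 CPM in vehicle livers. The vehicle libraries spread widely and enclosed the iD1 libraries, and the change of -0.14 (interval -0.94 to 0.66) was not called. Vdr, the vitamin D receptor, had 3, 4 and 3 counts in the iD1 libraries and 0, 1 and 0 in the vehicle libraries, which is too low for the filter and was not tested.

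Targets of these hormone receptors did not share one direction. Of 18 glucocorticoid receptor targets, 14 were higher and 0 lower (against 8.42% and 8.3% of all tested genes). Their median log2 fold change was 1.80, while Nr3c1 itself fell. By smallest p the higher targets were Angptl4, Pck1, Klf9 and Dusp1, at changes of 2.47, 2.08, 1.41 and 0.82. The count higher was 9 with iD1 replicate 3 left out, and with iD1 replicate 1 left out 11 were higher and 1 lower. Of 11 thyroid hormone receptor targets, 3 were higher and 3 lower, with a median of 0.07. Klf9 and Bcl3, a regulator of NF-kB, were higher, Bcl3 at 38.6 ± 12.6 CPM with iD1 and 11.6 ± 1.81 CPM with vehicle, as was the corepressor subunit Tbl1xr1. The lower ones included Cyp7a1, which opens the main route from cholesterol to bile acids. Leaving out iD1 replicate 2 or any of the vehicle libraries left 1 lower, and leaving out iD1 replicate 3 left 2. Target lists share genes: Klf9 is on both lists here, Angptl4 also on the PPAR-alpha list and Cyp7a1 also on the FXR list. Their counts are therefore not independent.

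Among the 8 lipid, bile acid and foreign-compound sensors, 3 were called higher and 1 lower (against 8.42% and 8.3% of all tested genes). Nr1i2 (PXR), which induces drug-metabolising enzymes, had 83.8, 91.3 and 104 CPM in iD1 livers, against 42.2, 58.5 and 62.8 CPM in vehicle livers. Every iD1 library lay above every vehicle library, and the change was 0.77 (SE 0.16, edgeR adjusted p = 0.0122). It missed the threshold once iD1 replicate 3 was left out (adjusted p = 0.0503, within a range of 0.0114 to 0.0503). It lies on chromosome 16 from 38248323 to 38294824. Its relative Nr1i3 was not called, at 166, 178 and 231 CPM with iD1, against 130, 178 and 164 CPM with vehicle, and the groups overlapped (change 0.28, interval -0.10 to 0.66). Exons of Nr1i3 share 3304 bases with Tomm40l on the other strand, which had a change of 0.15. Of 19 CAR and PXR targets, 3 were higher and 0 lower (against 8.42% and 8.3% of all tested genes), with a median of 0.38. They were the oestrogen sulfotransferase Sult1e1, the cytochrome P450 Cyp3a13 and Por, the electron donor of microsomal P450s. Por averaged 841 ± 111 CPM with iD1 and 256 ± 98.3 CPM with vehicle, a change of 1.71, and Cyp3a13 454 ± 159 and 167 ± 22.3 CPM. The classical CAR target Cyp2b10, named after its values were seen, had 30.4, 48.0 and 70.1 CPM in iD1 livers, against 2.23, 28.4 and 11.5 CPM in vehicle livers, and was not called (edgeR adjusted p = 0.264).

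The PPARs are fatty acid receptors, and their transcripts moved in different directions. Ppara, the subtype of fasting and fatty acid oxidation in liver, had 88.2, 65.7 and 102 CPM in iD1 livers, against 58.4, 58.0 and 49.2 CPM in vehicle livers. No iD1 library was under a vehicle library, with iD1 replicate 2 nearest, and the change was 0.63 (SE 0.16, edgeR adjusted p = 0.0299). Leaving out iD1 replicate 2 kept the call (adjusted p = 0.00938), while leaving out iD1 replicate 1 (0.0548) or 3 (0.105), vehicle replicate 1 (0.0631) or 2 (0.0716), or the unnumbered library (0.115) ended it. Ppard, a broadly expressed subtype, had 4.88, 6.63 and 5.34 CPM with iD1, against 7.92, 9.91 and 7.93 CPM with vehicle. These groups did not overlap either, and the change was -0.61 (SE 0.17, edgeR adjusted p = 0.0371). Ppard also stayed called with iD1 replicate 2 left out (adjusted p = 0.0316) and missed the threshold with iD1 replicate 1 (0.0795) or 3 (0.121), vehicle replicate 1 (0.0614) or 2 (0.134), or the unnumbered library (0.0798) left out. Pparg, best known from fat tissue, had 12.4, 10.9 and 9.52 CPM with iD1, against 10.4, 6.12 and 7.14 CPM with vehicle. The groups overlapped through vehicle replicate 1, and the change of 0.48 was not called (edgeR adjusted p = 0.138) except without that library (adjusted p = 0.0327, range 0.0327 to 0.351). Of 23 PPAR-alpha targets, 14 were higher and 0 lower (against 8.42% and 8.3% of all tested genes), with a median of 0.89. Beside Angptl4, Cpt1a and Fgf21, the muscle-type carnitine transferase Cpt1b was among those with the smallest p, at 5.74 ± 1.67 CPM with iD1 and 2.22 ± 0.249 CPM with vehicle. The count was 6 without the unnumbered vehicle replicate, 7 without iD1 replicate 3 and 8 without vehicle replicate 2.

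Of the oxysterol receptors, LXR-beta was called higher and LXR-alpha was not called. Nr1h2 (LXR-beta) had 19.95, 26.2 and 25.0 CPM in iD1 livers, against 18.5, 17.8 and 15.5 CPM in vehicle livers. The values did not overlap, and its change of 0.46 (SE 0.14) had the largest adjusted p of the called receptors, 0.0475 in edgeR. With a library left out it was called only if that was iD1 replicate 1 (adjusted p = 0.0156). Leaving out iD1 replicate 2 or 3 gave 0.147 and 0.143, vehicle replicate 1 or 2 gave 0.0774 and 0.101, and the unnumbered library gave 0.169. Nr1h3 (LXR-alpha) had 51.4, 56.3 and 49.5 CPM with iD1, against 68.4, 58.2 and 64.1 CPM with vehicle, without overlap. Its change of -0.28 (interval -0.53 to -0.02) was not called (edgeR adjusted p = 0.129), but with library size only it was called lower (-0.48, adjusted p = 0.0239). Of 13 LXR targets, a list that includes Nr1h3, 2 were higher and 1 lower (against 8.42% and 8.3% of all tested genes). Their median was 0.00. The sterol exporter half-transporters Abcg8 and Abcg5 rose, Abcg8 to 73.4 ± 21.1 CPM in iD1 livers, against 25.9 ± 5.74 CPM in vehicle livers, and Srebf1, the lipogenic regulator, fell. Leaving out the unnumbered library or any of the iD1 libraries left 1 higher, and with iD1 replicate 1 left out 3 were lower.

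The bile acid receptor Nr1h4 had 111, 122 and 117 CPM in iD1 livers, against 131, 140 and 154 CPM in vehicle livers. The groups did not overlap, and the change of -0.28 (interval -0.55 to -0.02) was not called (edgeR adjusted p = 0.138), but with library size only it was called lower (-0.48, adjusted p = 0.0168). Nr0b2 (SHP), a repressor without a DNA-binding domain and a known FXR target, had 12.7, 8.57 and 11.7 CPM with iD1, against 14.97, 7.88 and 9.86 CPM with vehicle. All iD1 values lay inside the vehicle range, with a log2 fold change of 0.01 and an interval of -0.55 to 0.57. Of 8 tested FXR targets, a list that includes Nr0b2, 1 was higher and 2 lower (against 8.42% and 8.3% of all tested genes). Their median was 0.08. Abcb4, which moves phospholipid into bile, was higher, and the bile salt pump Abcb11 and Cyp7a1 were lower, Cyp7a1 at 39.7 ± 12.4 CPM with iD1 and 278 ± 103 CPM with vehicle. With iD1 replicate 1 left out these counts were 2 and 3.

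Of 11 tested receptors of hepatocyte identity and constitutive activity, 2 were called higher and 3 lower (against 8.42% and 8.3% of all tested genes). Hnf4a had 633, 823 and 737 CPM in iD1 livers, against 290, 492 and 491 CPM in vehicle livers. Vehicle replicate 1 was the lowest, and no vehicle library reached an iD1 library. Its change was 0.78 (SE 0.22, edgeR adjusted p = 0.0366). Hnf4a stayed called with iD1 replicate 1 left out (adjusted p = 0.0334) but not with iD1 replicate 2 (0.108) or 3 (0.1001), vehicle replicate 1 (0.0676) or 2 (0.0581), or the unnumbered library (0.0719) left out. Hnf4a lies on chromosome 2 from 163506808 to 163572910, and the promoter printed above is the downstream one of its 2 listed starts. Hnf4g, its intestinal relative, had 1, 5 and 2 counts in the iD1 libraries and 3, 6 and 2 in the vehicle libraries and was not tested. Of 19 HNF4A targets, 4 were higher and 0 lower (against 8.42% and 8.3% of all tested genes), with a median of 0.16. They were Apoa4 (254 ± 55.3 CPM with iD1 and 96.6 ± 20.6 CPM with vehicle), the tyrosine-degrading enzyme Tat, Apoa1 and the clotting factor F12. Leaving out iD1 replicate 1 or 3, or any of the vehicle libraries, left 2 higher, and with iD1 replicate 1 left out 1 was lower.

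In the COUP-TF group, orphan receptors often acting as repressors, Nr2f6 and Nr2f2 fell. Nr2f6 had 38.05, 33.7 and 30.8 CPM in iD1 livers, against 62.7, 51.1 and 57.1 CPM in vehicle livers. The groups lay well apart, and the change was -0.74 (SE 0.13, edgeR adjusted p = 0.00563). Exons of Nr2f6 share 1622 bases with Ocel1 on the other strand, which fell too, by 0.96 on the log2 scale (edgeR adjusted p = 0.0233), and no source used here says whether the counting used strand, so reads of the pair cannot be told apart. Nr2f2, known from veins, stellate cells and other stroma, had 13.6, 7.90 and 11.005 CPM with iD1, against 20.7, 19.0 and 20.2 CPM with vehicle. The vehicle libraries lay close together above all iD1 libraries, and the change was -0.89 (SE 0.18, edgeR adjusted p = 0.0105). Nr2f1 was low, at 11 to 18 counts per iD1 library and 24 to 41 per vehicle library, and its change of -0.63 (interval -1.44 to 0.18) was not called. Esrra, which with its coactivators drives mitochondrial genes, had 18.2, 17.6 and 21.5 CPM with iD1, against 23.7, 27.4 and 29.5 CPM with vehicle. The groups did not overlap (change -0.49, SE 0.13, edgeR adjusted p = 0.0313). Esrra missed the threshold with iD1 replicate 1 (adjusted p = 0.0619) or 2 (0.0913), vehicle replicate 2 (0.085) or the unnumbered library (0.115) left out, within a range of 0.033 to 0.115. Its exons share 73 bases with Trmt112 on the other strand, which had a change of 0.27 and was not called. Of 14 oestrogen-related receptor targets, a list that includes Esrra, 2 were higher and 2 lower (against 8.42% and 8.3% of all tested genes). Their median was 0.09. Vegfa and Esrra were lower, and the coactivator Ppargc1a and the dehydrogenase Acadm were higher. None was called higher once iD1 replicate 2 or 3, or any of the vehicle libraries, was left out, and 3 were with iD1 replicate 1 left out. The count lower was 0 with iD1 replicate 2 or the unnumbered library left out and 1 with any other library left out.

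Nr2c2 (TR4), a receptor that binds direct repeats, had 24.6, 22.2 and 24.5 CPM in iD1 livers, against 18.2, 17.1 and 13.999 CPM in vehicle livers. The groups did not overlap, and the change was 0.53 (SE 0.13, edgeR adjusted p = 0.022). Leaving out iD1 replicate 3 (adjusted p = 0.0716), vehicle replicate 2 (0.055) or the unnumbered library (0.0851) ended the call, within a range of 0.0304 to 0.0851. Exons of Nr2c2 share 4590 bases with Mrps25 on the other strand, whose log2 fold change was -0.33 (SE 0.15). Its relative Nr2c1 overlapped between the groups, with an interval of -0.40 to 0.47. Nr6a1 (GCNF) had 5.48, 5.82 and 7.94 CPM with iD1, against 9.85, 9.76 and 7.96 CPM with vehicle. The highest iD1 library almost met the lowest vehicle library, and the change of -0.52 was not called (edgeR adjusted p = 0.0724). It was called lower with iD1 replicate 3 left out (adjusted p = 0.0418, range 0.0418 to 0.185 with 1 library left out), with upper-quartile factors (0.0465), with library size only (0.0311) and without the low-count filter (0.0458). Nr5a2 (LRH-1), a regulator of bile acid and cholesterol genes, Rora and Esrrg overlapped between the groups too, with changes of -0.15, -0.15 and 0.35, and were not called.

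The NR4A receptors are immediate early genes that act without a known activating ligand. Nr4a1 had 1.81, 1.75 and 3.58 CPM in iD1 livers, against 1.198, 0.410 and 0.460 CPM in vehicle livers. The groups did not overlap, and iD1 replicate 3 stood well above the other iD1 libraries. Its change of 1.80 (SE 0.47, edgeR adjusted p = 0.031) was the largest rise among the called receptors. It rests on 45 to 77 counts per iD1 library and 15 to 36 per vehicle library. The call did not survive leaving out iD1 replicate 3 (adjusted p = 0.0981), vehicle replicate 2 (0.0989) or the unnumbered library (0.111), within a range of 0.0121 to 0.111. Nr4a1 lies on chromosome 15 from 101254269 to 101274795. Nr4a2 had 11, 16 and 11 counts in the iD1 libraries and 9, 12 and 5 in the vehicle libraries, and its change of 0.97 (interval 0.03 to 1.91) was not called (edgeR adjusted p = 0.147). Of 17 other tested immediate early genes, 14 were higher and 0 lower (against 8.42% and 8.3% of all tested genes), with a median of 1.59. Junb, Btg2, Jun and Klf2 had the smallest p, and Klf2 averaged 10.8 ± 1.88 CPM with iD1 and 3.59 ± 0.374 CPM with vehicle.

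**Figure D3:**
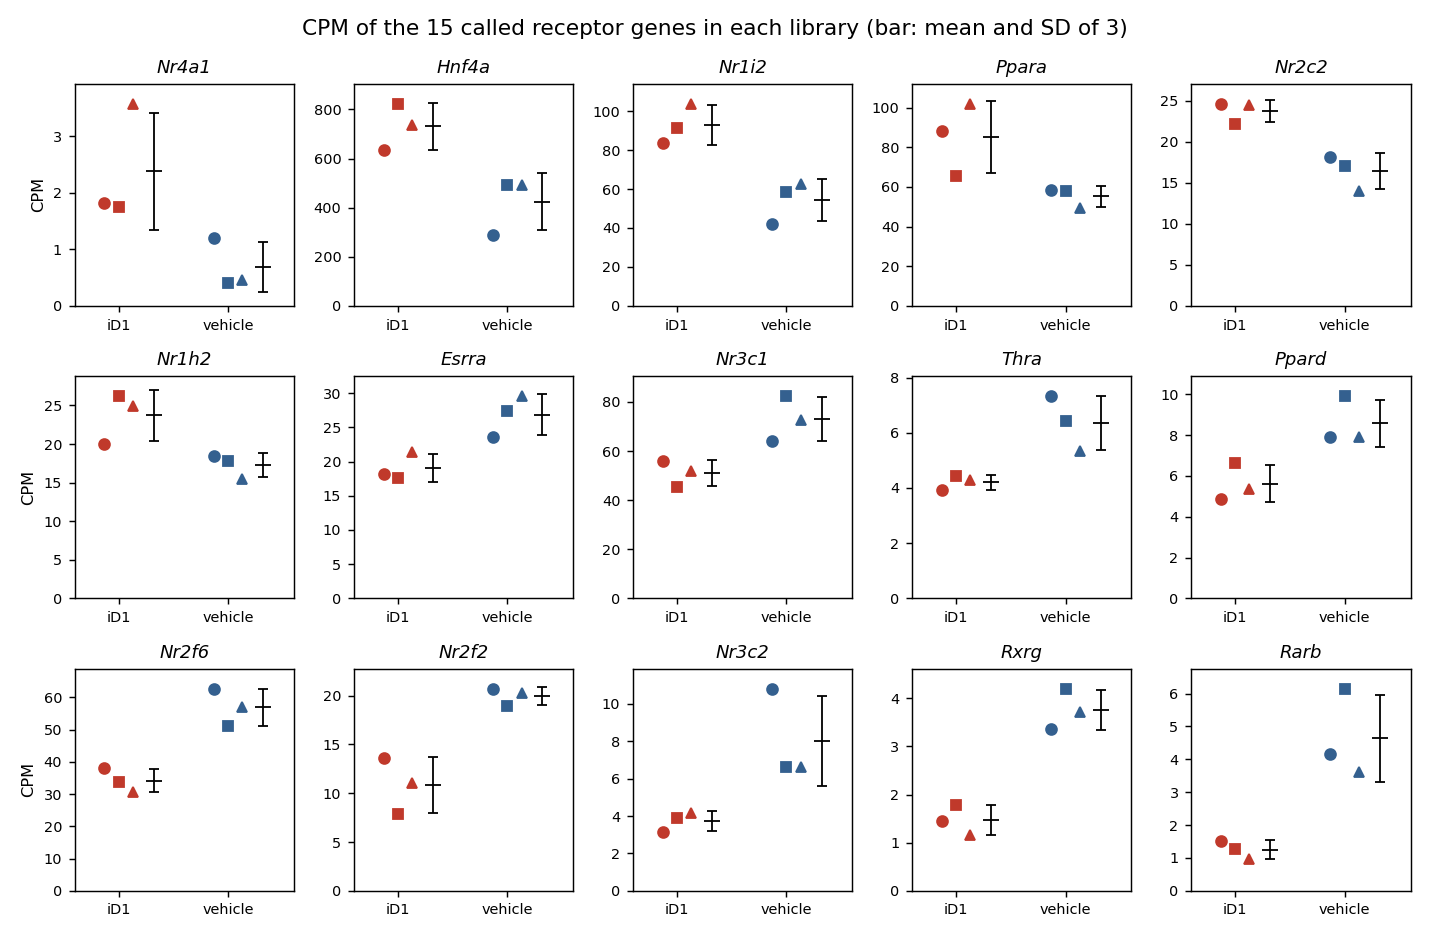
CPM of the 15 called receptor genes in each library, iD1 in red left of vehicle in blue, with circles, squares and triangles for replicates 1, 2 and 3 (for vehicle, the triangle is the unnumbered replicate) and a bar for the mean and SD of 3. In all 15 the groups do not overlap, from Nr4a1 at 1.75 to 3.58 CPM with iD1 to Rarb at 0.9751 to 1.53 CPM.

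Within families the balance between receptors was compared as the ratio of the CPM of 2 genes in the same library, which does not depend on how libraries are scaled. There were 19 pairs, chosen by family after the changes were seen. With 3 libraries against 3 the exact permutation test (two-sided) cannot go under 0.1, or 0.173 after adjustment over the pairs, so none can pass. Ppara exceeded Ppard 18.1-, 9.90- and 19.1-fold in counts in iD1 libraries, against 7.38-, 5.86- and 6.201-fold in vehicle libraries, a difference of 1.22 on the log2 scale (exact p = 0.1). Nr1h2 stood at 0.388, 0.465 and 0.505 of Nr1h3 with iD1, against 0.270, 0.306 and 0.242 with vehicle (difference 0.73, exact p = 0.1). Nr1i2 stood at 0.506, 0.514 and 0.450 of Nr1i3 with iD1, against 0.324, 0.329 and 0.383 with vehicle (difference 0.51, exact p = 0.1).

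Rarb lay at 0.144, 0.134 and 0.103 of Rara with iD1, against 0.451, 0.661 and 0.308 with vehicle, and Rxrg against Rxra differed by -1.63 on the log2 scale (exact p = 0.1 each). Nr2c2 against Nr2c1 differed by 0.53 and Thra against Thrb by -0.49, each without overlap (exact p = 0.1). By contrast the ratio of Rxra to Rxrb was 13.2, 13.2 and 13.1 with iD1 and 11.2, 13.3 and 13.1 with vehicle, and these overlapped (exact p = 0.8). The ratio of Nr2f2 to Nr2f6 also overlapped (difference -0.18, exact p = 0.7), as did that of Nr3c2 to Nr3c1 (difference -0.55, exact p = 0.3).

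**Figure D4:**
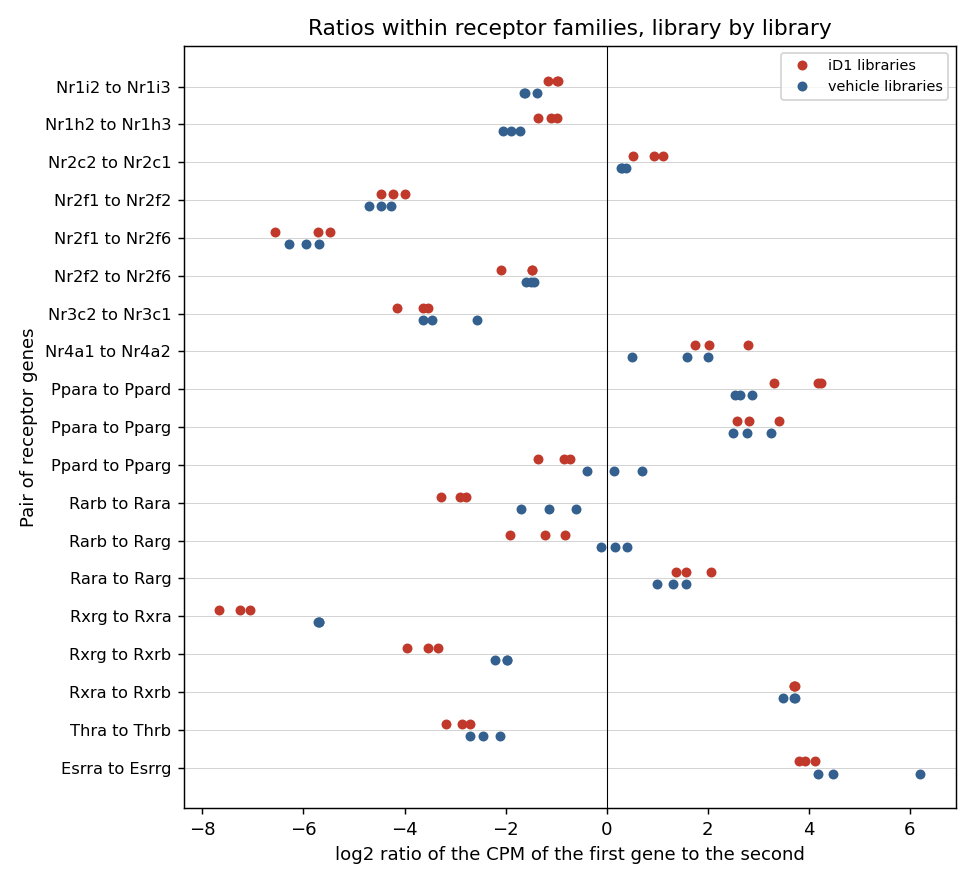
Log2 ratio of the CPM of 2 receptors of a family in each library for 19 pairs, iD1 in red above vehicle in blue. Ppara to Ppard lies higher in all 3 iD1 libraries and Rarb to Rara and Rxrg to Rxra lower, while Rxra to Rxrb overlaps.

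Several of these receptors are also made by cells other than hepatocytes, so marker levels are given beside them. Over all tested genes 8.42% were called higher and 8.3% lower. Of 10 stellate cell markers 0 were higher and 1 lower (Lrat; 2 with vehicle replicate 1 left out), and their sum was 249 to 325 CPM with iD1 and 242 to 330 CPM with vehicle. Of 10 sinusoidal endothelial markers 1 was lower (Fcgr2b), with sums of 206 to 262 CPM with iD1 and 234 to 308 CPM with vehicle. That count was 0 with any of the vehicle libraries left out and 2 with iD1 replicate 3 left out. Of 10 Kupffer cell and macrophage markers 0 were called in edgeR (3 had an unadjusted p under 0.05, and 2 were called lower with vehicle replicate 1 left out), with sums of 134 to 179 CPM with iD1 and 131 to 224 CPM with vehicle. Of 6 tested cholangiocyte markers Sox9 was higher and Krt19 lower, and of 5 tested neutrophil markers 3 were higher, at a summed 4.35 to 12.98 CPM with iD1 and 1.49 to 2.06 CPM with vehicle. The neutrophil count was 1 with vehicle replicate 1 or the unnumbered library left out and 2 with vehicle replicate 2 or iD1 replicate 3 left out, and the cholangiocyte count higher was 0 with any library but iD1 replicate 3 left out. Of 3 tested B or T cell markers 1, the pan-leukocyte gene Ptprc, was lower, at 4.03 ± 0.412 CPM with iD1 and 7.02 ± 0.611 CPM with vehicle. At an unadjusted p under 0.05 there were 5 stellate and 6 endothelial markers, and the median log2 fold changes of the stellate, endothelial and Kupffer cell lists were -0.16, -0.24 and -0.29. No marker on these lists was at 0 in all 6 libraries. The part of other cell types in the falls of Rarb, Rxrg and Nr2f2 was not tested.

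**Figure D5:**
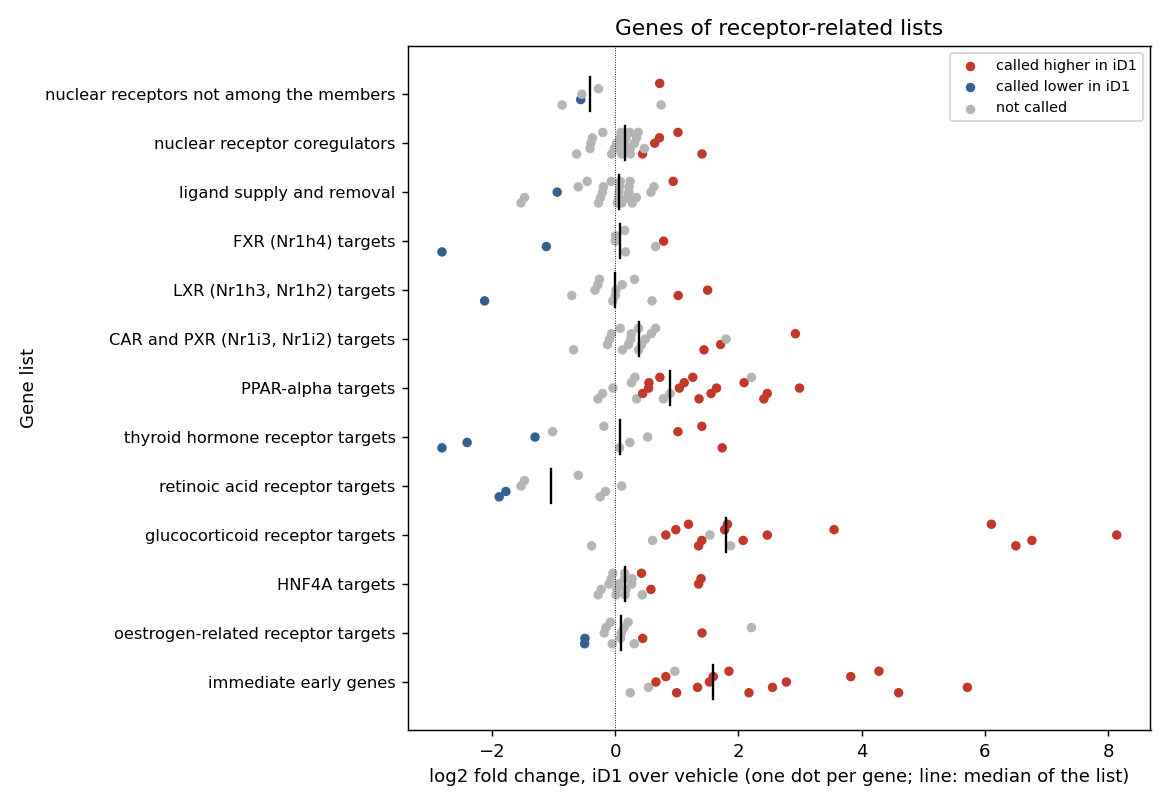
Log2 fold changes of iD1 over vehicle for tested genes of 13 lists, one dot per gene. The lists hold receptors, coregulators, ligand metabolism, receptor targets and immediate early genes. Red marks genes called higher, blue called lower and grey not called, with a black line at each list's median. Medians reach 1.80 for glucocorticoid receptor targets and -1.03 for retinoic acid receptor targets, and lie between 0.00 and 0.16 for LXR, FXR and HNF4A targets.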

How the data were processed

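Liver RNA of 3 iD1 and 3 vehicle samples was sequenced from stranded poly(A) libraries, per the labels' protocols. As deposited, the table holds each gene's estimated count, and 22.6% to 27.7% of the values per library are not whole. No source used here names the aligner, quantifier, build or strand setting. Counts were rounded to whole numbers, and genes were filtered by expression (minimum count 10, total 15), which left 13718. They were scaled by TMM and tested with edgeR's quasi-likelihood test (version 4.0.16, under R 4.3.3), and p-values were adjusted by Benjamini-Hochberg, with 0.05 as the threshold. Intervals are 95% intervals of the fit. Alternatives used limma 3.58.1 and DESeq2 1.42.0, other factors, filters and thresholds, a replicate block, and each library left out in turn. Exact tests used scipy 1.17.1. Totals were 24694639, 35207596 and 23515571 in iD1 libraries and 27160894, 37613549 and 32342898 in vehicle libraries. No 2 libraries of a group matched within counting noise. On simulated data for iD1 against vehicle (13560 genes), 8.33% of 48 genes changed 1.5-fold were recovered. So were 64% of 100 changed 2-fold and 98% of 49 changed 4-fold, with 3 false calls. Far fewer genes were changed there than the 2293 called in the data, which makes the adjustment of p-values stricter. These shares therefore do not give the recovery in the real comparison.

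The 35 genes and the lists of pathways and markers were chosen with earlier results of these data known. Each of the 35 is accounted for, and every called one is given with its value in every library. Of those not called, the 5 with the smallest p and the 5 with the highest level per length are given in values. Up to 4 called genes per list, by smallest p, are named. Ordering levels by exon union length was added after the data were seen. Coordinates are from GENCODE M21 and promoters from RefSeq, with entries for 32 of the 35 genes.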

Additional observations from a re-analysis of the deposited data

How the results depend on the processing

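With no scaling beyond library size 1 receptor, Nr1i2, was called higher. At a threshold of 0.01, 825 genes were called in all, with 0 receptors higher and 3 lower. Leaving out 1 library at a time gave 1212 to 2574 called genes, 0 to 5 receptors higher and 5 to 7 lower. The main fit does not pair the samples, and whether the replicate numbers mark pairs is not known. Only 2 numbers are shared. The deviations of same-numbered libraries correlated at 0.169 and -0.127, against -0.245 to 0.218 for the others, which cannot decide it. With the number as a replicate block 827 genes were called, 2 receptors higher and 3 lower. The block ended the calls of Rxrg (edgeR adjusted p = 0.0514), Nr2f6 (0.0797), Nr2c2, Nr3c1, Ppara, Nr4a1, Esrra, Ppard, Thra and Nr1h2. In that fit iD1 replicate 3 and the unnumbered library each stand alone in a block. The comparison therefore rests on replicates 1 and 2 of each group and is not a blocked fit of all 6 libraries. No called receptor changed sign under any alternative run. Among receptors not called, the log2 fold change turned round under the block for Esrrg (-0.19), Esr1 (0.33), Rara (0.11), Nr2c1 (-0.073) and Nr0b2 (-0.062). It did so with library size only for Rxrb (-0.026), Nr2c1 (-0.16) and Nr0b2 (-0.19), with upper-quartile factors for Nr2c1 (-0.041) and Nr0b2 (-0.067), and without the low-count filter for Nr0b2 (-0.0065). With 1 library left out the ranges were -0.026 to 0.58 for Esrrg, -0.45 to 0.17 for Esr1, -0.098 to 0.080 for Rara, -0.19 to 0.20 for Nr2c1 and -0.18 to 0.31 for Nr0b2. The cause of these changes was not tested. The comparison under the block and the fits that leave 1 library out rest on fewer samples than the main fit. Of the other alternatives, limma-voom called 5 receptors higher and 8 lower (without Thra and Nr1h2) and DESeq2 6 and 9. Depth limits Nr4a2, Nr2f1, Esrrg, Nr4a1, Rxrg and Rarb most, the tested receptors with the fewest counts.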

Other observations

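Coregulators carry the signal of nuclear receptors to chromatin and the transcription machinery. Of 26 tested, 5 were higher and 0 lower with iD1 in edgeR (against 8.42% and 8.3% of all tested genes). Their median log2 fold change was 0.17, against 0.00 over all tested genes. Tbl1xr1, a subunit of the NCoR corepressor complex, averaged 42.3 ± 8.62 CPM in iD1 livers and 20.9 ± 2.68 CPM in vehicle livers (SD, n = 3 each). Ppargc1a, a coactivator of fasting metabolism, averaged 18.5 ± 7.57 CPM with iD1 and 6.94 ± 0.782 CPM with vehicle. The deacetylase Sirt1 and the coactivator Pprc1 rose by 0.72 and 0.64 on the log2 scale. The count higher was 3 with iD1 replicate 2 or 3, vehicle replicate 1 or the unnumbered library left out, and with iD1 replicate 1 left out 4 were higher and 2 lower.

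Of 25 tested genes that supply or remove retinoid, thyroid, steroid or vitamin D ligands, 1 was higher and 1 lower. Over all tested genes 8.42% were called higher and 8.3% lower. Rdh11, a retinal reductase, averaged 39.9 ± 10.3 CPM in iD1 livers and 76.6 ± 3.56 CPM in vehicle livers, and Slc16a10, a transporter of aromatic amino acids and thyroid hormone, 136 ± 23.9 CPM in iD1 livers and 70.5 ± 17.2 CPM in vehicle livers. With 1 library left out the count higher ranged from 0 to 2 and the count lower from 1 to 3. Outside the 35, the clock receptor Nr1d2 averaged 54.4 ± 8.00 CPM with iD1 and 32.9 ± 7.26 CPM with vehicle and was called higher.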
